A study of Mus musculus with 2 samples.

Results

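The protein components of the cytosolic ribosome were followed through the adipose tissue-resident leukocytes of mice on chow or on a ketogenic diet. The members were all genes of the count table whose symbol names a protein of the large (Rpl) or the small (Rps) subunit by a number with at most 1 letter (a, x or l) after it, together with Rpsa, Rplp0, Rplp1 and Rplp2. This gave 81 genes of the 28692 in the table, 50 of the large and 31 of the small subunit. Of these, 78 had at least 100 UMIs over both libraries, and each of the 78 had at least 20000. A UMI (unique molecular identifier) stands for 1 captured RNA molecule. The other 3 are paralogs: Rpl10l was counted 1 time, Rpl3l 38 times and Rpl39l 67 times. The ribosomal protein genes Fau, Rack1 (under its older symbol Gnb2l1) and Rps3a1 fall outside the symbol rule and are given beside the members.

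Each ribosome holds a copy of nearly every one of these proteins next to the ribosomal RNAs, so their genes are known for being transcribed at high and closely matched levels in every cell. Most of their mRNAs begin with a run of pyrimidines at the 5′ end, the TOP motif (terminal oligopyrimidine tract), through which mTOR signalling sets how actively they are translated. In leukocytes, resting lymphocytes are known for devoting a large part of their small mRNA pool to these genes, while plasma cells devote a large part of theirs to immunoglobulin. mRNA counts give neither the number of ribosomes nor how actively the mRNAs were translated.

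The cells were CD45+ leukocytes of adipose tissue, from wild-type (labelled wt) C57BL/6 mice titled adult. An intravenous label, which reaches cells inside blood vessels, had been used to tell those apart from resident cells. The control group had eaten chow for 1 week and the other group a ketogenic diet (low in carbohydrate and high in fat), and no other treatment or allele is named. Each diet is 1 10x Genomics library, and the number, sex and exact age of the mice in it are not given in the sources used here, so no difference between the diets has a replicate check and no test was possible.

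The chow library held 4545 cells with 21570910 UMIs and the ketogenic library 5614 cells with 26041785 UMIs, at median depths of 3469 and 3461.5 UMIs per cell. Within clusters the depths differed more: the median was higher under the ketogenic diet in 11 of 13 clusters, and the ratio of the medians (ketogenic over chow) ran from 0.577 in cluster 8 to 1.42 in cluster 7. The authors' table places 4458 and 5559 of these cells in 13 clusters. Ptprc, which encodes CD45, had a UMI in 82.6% and 82.3% of the clustered cells, and its lowest level in any cluster was 133 CPM (counts per 1000000 UMIs). By their markers, cluster 0 was ILC2-like (group 2 innate lymphoid cells), 1 NK-like, 2 T-like with CD4 and CD8 markers, 3 macrophage-like, 5 cDC2-like and 6 cDC1-like (conventional dendritic cells), 7 Treg-like, 11 γδ T-like and 12 mature dendritic cell-like. Cluster 9 was led by B cell and plasma cell genes and 10 by cell cycle genes. Clusters 4 (T cell genes with Ly49 receptors) and 8 (Retnla, Fcrls, Lyz1) were left unnamed. The marker lists of other cells differed between the libraries: 5 neutrophil genes summed to 2096 UMIs in the chow library and 216 in the ketogenic one. For 5 red cell genes the sums were 389 and 2955, with Hba-a1 among the leading genes of cluster 0. Their part in the values below was not tested. The libraries shared 41 barcode sequences, 0.902% of the smaller library.

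Promoter sequences were available for 60 of the 81 members (RefSeq, build GRCm38.p6), and runs of pyrimidines near the annotated start were more frequent in them than over all genes. A run of at least 8 bases made only of C and T, read on the transcribed strand between 20 bases before and 40 bases after the annotated start, was present in 42 of the 60 members (70%), against 24.7% of all 27025 genes with such a sequence. In 15 of these 42 the longest run covers the start annotated in RefSeq, in 18 it begins after it and in 9 it ends before it. A run found this way is therefore not in itself a TOP motif, which has to begin the mRNA. The longest run had a median of 10 bases in the members and 6 over all genes. The sequences below are from those members with the highest and the lowest ratios between the diets for which the table holds one, as 30 bases around the longest run, 5′ to 3′, with the run in capitals. The first 6 were higher under the ketogenic diet:
Rpl4: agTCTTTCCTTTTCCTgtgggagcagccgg
Rplp0: aggaccgcctggTTCTCCTataaaaggcac
Rpl6: gaccggaagccgctgccttagTTCTCTTTC
Rps6: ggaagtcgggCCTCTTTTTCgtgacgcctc
Rpl14: agggcgggCCCTCTCTCTTCTCgctgagcg
Rps7: ccgctgtccccaCCTCTTTTCTTCCgccac
The other 5 were lower:
Rps27l: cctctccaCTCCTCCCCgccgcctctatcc
Rpl37a: catgcgcattgcgTCCCTTCCTCTTCggac
Rpl38: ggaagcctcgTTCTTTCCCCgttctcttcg
Rps12: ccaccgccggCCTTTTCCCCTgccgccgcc
Rps26: aagccgccggaTCCTCTTTCgagtcttggc
They come from chr9:64173367-64173396 (Rpl4, plus strand), chr5:115559466-115559495 (Rplp0, plus), chr5:121204511-121204540 (Rpl6, plus), chr4:86857349-86857378 (Rps6, minus), chr9:120571501-120571530 (Rpl14, plus), chr12:28635914-28635943 (Rps7, minus), chr9:66946066-66946095 (Rps27l, plus), chr1:72711270-72711299 (Rpl37a, plus), chr11:114668568-114668597 (Rpl38, plus), chr10:23787182-23787211 (Rps12, minus) and chr10:128626485-128626514 (Rps26, minus). The marked run covers the annotated start in Rps6, Rpl14 and Rpl38. It begins 3 bases after the start in Rps26, 8 in Rps12, 11 in Rplp0, 22 in Rps7, 23 in Rpl37a and 31 in Rpl6, and it ends 3 bases before the start in Rps27l and 4 in Rpl4. All these positions are relative to the RefSeq start and depend on the annotation. The gene start in GENCODE M21 lies inside the marked run in Rpl4 (chr9:64173375) and in Rpl37a (chr1:72711290). The annotations were not compared over all members.

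The run did not separate the members by diet. It was present in 22 of the 31 members that were higher under the ketogenic diet (71.0%) and in 19 of the 26 that were lower (73.1%). Among the sequences shown, Rplp0 with 7 bases has the shortest run and Rpl4 and Rpl14 with 14 bases have the longest. Within the whole 300 bases, searched on both strands, CCGGAAG (a core sequence of ETS factors, whose reverse complement can overlap a C and T run) was found in 25 of the 60 members (41.7%) against 9.93% of all genes. AAGATGGC, known from YY1 sites, was in 8.33% of the members against 3.19%, and TATAAA in 10% against 15.7%. CCGGAAG stood in 41.9% of the higher and 42.3% of the lower members. These matches describe the letters of the sequences and do not show that a factor binds there.

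The members made up a large part of all RNA molecules counted. Over all clustered cells, they took 24.4% of the UMIs on chow and 27.5% on the ketogenic diet (log2 ratio 0.17). When both libraries were set to 1 common cluster composition (the mean of their shares of cells), the shares were 26.8% and 27.1%, a log2 ratio of 0.02. Clusters 3 and 8, which had low member shares, held 37.4% of the chow UMIs and 4.43% of the ketogenic UMIs. With the chow share of each cluster weighted by that cluster's part of the ketogenic UMIs (not of the cells), the chow share became 26.9%. The weighted share of the large subunit was 14.8% and 15.1%, and that of the small subunit 11.9% in the chow library and 0.0515 points more in the ketogenic one. The same weighting gave mitochondrially encoded genes 2.06% and 1.83%, and a list of 20 immediate early and heat shock genes, which are induced quickly by stress and handling, 1.37% and 1.52%. Of these 20 genes, 11 were higher and 9 lower under the ketogenic diet, from Hspa1a at a log2 ratio of 1.54 to Egr1 at -1.15. The 5 heat shock genes took 0.243% and 0.317%, and the difference of the other genes was 0.0740 points. With mitochondrial genes left out of the total, the log2 ratio of the weighted member share was 0.0161. With the 50 most counted other genes left out, it turned to -0.0109. The part of these stress genes was not tested.

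The member share followed the cell type more than the diet. In summed UMIs, it was highest in cluster 2, the T-like cells, with 33.1% on chow and 32.1% on the ketogenic diet. By the median of single cells, cluster 2 was highest on chow only, and cluster 9 was highest on the ketogenic diet (32.8%). In summed UMIs, cluster 4 came next at 30.6% and 31.1%, and then the ILC2-like cluster 0 at 30.4% and 29.5%. The cDC1-like cluster 6 had 28.7% and 28.5%, which set it above the cDC2-like cluster 5 with 24.1% and 25.3%. The macrophage-like cluster 3 was low in both libraries, at 20.6% each, and cluster 8 had 20.7% and 22.3%. Exact binomial 95% intervals were narrow, at 25.8% to 26.2% even in the chow cells of cluster 11, the cluster with the fewest of them. They cover counting error only, and neither animals nor cell handling.

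In shares of summed UMIs, which this paragraph uses unless stated, the highest 5 clusters stood in the same order in both libraries: 2, 4, 0, 6 and 7. By the median of single cells the order was not shared. Cluster 2 was then highest on chow (31.2%) and cluster 9 on the ketogenic diet (32.8%). The Treg-like cluster 7 (26.7% and 26.9%) lay above the γδ T-like cluster 11 (26.0% and 26.0%) in both. The NK-like cluster 1 (25.6% and 26.8%) lay below both in the chow library and between them in the ketogenic one, so it could not be ordered against cluster 11, and neither could clusters 5 and 12 against each other. The mean of both libraries was 1.68 times higher in cluster 2 than in cluster 9, which had the lowest mean, and 1.58 times higher than in the next lowest cluster when cluster 9 was left out. Cluster 9 was the lowest in the chow library only: in the ketogenic one, at 23.0%, it lay above clusters 8 (22.3%) and 3 (20.6%). Its low place holds for summed UMIs only, since the median of its single cells was 30.4% on chow and 32.8% on the ketogenic diet. The authors made the clusters from these same cells, and whether the members were among the genes used is not given in the sources used here. These differences are therefore a description.

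**Figure D1:**
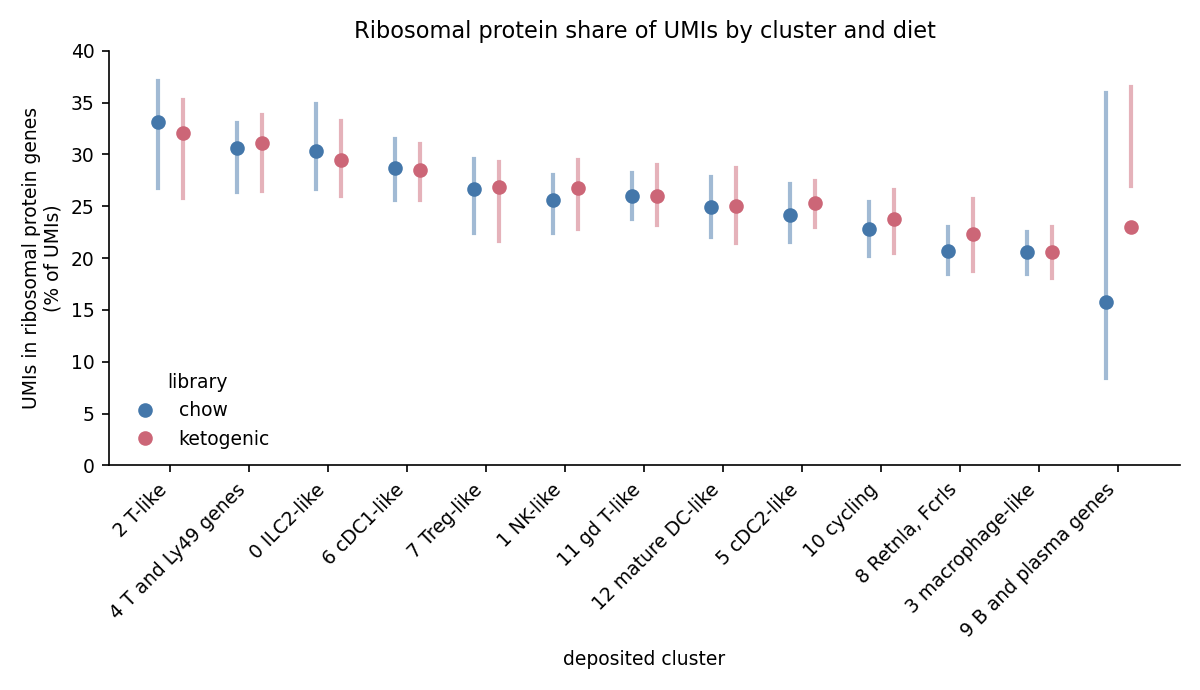
Share of UMIs in the 81 ribosomal protein genes (percent) for each of the 13 deposited clusters, ordered by the mean of the libraries, with chow in blue and the ketogenic diet in red. Points are the share of the summed UMIs and bars run from the lower to the upper quartile of the single cells. Chow and ketogenic points lie within 1.2 percentage points in 11 of 13 clusters, and cluster 9 is the one with a wide gap.

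Between the diets, the share was higher under the ketogenic diet in 9 of 13 clusters and lower in 4. The number of higher clusters was between 5 and 9 over the alternatives tried. It exceeded counting error in 7 of the 9 and in 3 of the 4. The difference was within 1.2 percentage points in 11 clusters. The widest difference was in cluster 9, with 15.8% under chow and 23.0% under the ketogenic diet. Clusters 1, 5 and 8 were each more than 1 point higher under the ketogenic diet, and the T-like cluster 2 was more than 1 point lower. In the γδ T-like cluster 11 the libraries differed by 0.0275 points.

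Cluster 9 held cells of clearly different kinds. Cells in which immunoglobulin genes took under 20% of the UMIs had member shares of 35.1% under chow (48 cells) and 34.0% under the ketogenic diet (197 cells), above the share of any whole cluster. Cells with 20% or more immunoglobulin had 9.19% (34 cells) and 10.0% (48 cells). With immunoglobulin UMIs left out of the total, the latter had 21.4% and 22.7%. The cells rich in immunoglobulin also had median depths of 15836 and 16844 UMIs, against 2998 and 3431 in the others, and made up 41.5% of the cluster's cells under chow and 19.6% under the ketogenic diet. Immunoglobulin took 43.3% of the cluster's UMIs under chow and 26.8% under the ketogenic diet. In both kinds of cell the diets differed by about 1 point, in opposite directions. The part of this make-up in the cluster's difference between the diets was not tested apart from this split.

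The share also differed with depth in some clusters, and depth differed between the diets within clusters. The part of depth in the differences between the diets was examined by recomputing the weighted log2 ratio of the share. It was 0.0194, and it became 0.00625 in cells of at least 3000 UMIs, 0.00842 without the deepest 5% of cells and 0.00408 with every cell given the same weight whatever its depth. In the T-like cluster 2, from the third of cells with the fewest UMIs to the third with the most, the share was 29.5%, 31.4% and 36.3% under chow and went from 27.8% to 34.9% under the ketogenic diet. In the ILC2-like cluster 0 the order was the opposite, at 32.2%, 30.9% and 29.0% under chow, but these values lay closer together under the ketogenic diet, at 29.97%, 29.8% and 29.0%. In the macrophage-like cluster 3 the share was between 20.3% and 20.8% under chow and between 20.1% and 21.1% under the ketogenic diet.

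Members differed between the diets by small amounts. These exceeded 2 counting SEs in 69 of the 78 members (88.5%), the same share as among all 314 genes with at least 20000 UMIs (88.5%), so this count shows nothing particular to the members. With cluster weights, no member with at least 100 UMIs was 1.5-fold higher or lower, whereas 5.0% of the 10361 genes with that many UMIs were 1.5-fold higher and 4.84% lower. The median log2 CPM ratio of the 78 members (ketogenic over chow, 0.5 added to each count, cluster weights as above) was 0.04, with 44 higher and 34 lower, against a median of 0.06 over all genes. The large subunit members had a median of 0.06 (30 of 47 higher) and the small subunit members -0.01 (14 of 31 higher). The ratios of the members ran from -0.44 to 0.50 with an SD of 0.17, and those of the 236 other genes with at least 20000 UMIs had an SD of 0.36. Without cluster weights, the split was 63 higher and 15 lower, and centred on the median of all genes it was 35 and 43. Rpl4 and Rpl3 were 1.5-fold higher and Rps27l 1.5-fold lower when no cluster weights were used.

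The members at least 25% higher were 4 of the large subunit (Rpl4, Rpl3, Rplp0 and Rpl29, 5.13% of 78), and 1 of the small subunit was at least 20% lower (Rps27l, 1.28%). Among all 314 genes with at least 20000 UMIs, 13.7% passed the upper and 9.24% the lower of these limits, so both member shares were below the background. Rpl4, whose protein lines the exit tunnel of the nascent chain, stood at 1617 CPM in the chow library and 2290 CPM in the ketogenic one, a log2 ratio of 0.50 (counting SE 0.0123). Its gene is at chr9:64173375-64178666, plus strand, with 10 exons (GENCODE M21, GRCm38). Rpl3, whose protein reaches to the peptidyl transferase centre, had 2282 and 3190 CPM, a ratio of 0.48 (SE 0.0103), from 10 exons at chr15:80077791-80091868, minus strand. Rplp0, the base of the ribosomal stalk that recruits elongation factors, had 3482 and 4679 CPM, a ratio of 0.43 (SE 0.00842), from 7 exons at chr5:115559467-115563727, plus strand. These 3 have the longest coding sequences of the 77 members that have both an annotated one and at least 100 UMIs, at 1257, 1209 and 951 bases.

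Rpl29 had 1223 and 1560 CPM (0.35), but 64.4% of the 31-base words in the last 300 bases of its transcript occur in other genes of the table, so its counting is uncertain. Whether the reads came from the 3′ or the 5′ end of the mRNA is not given in the sources used here, and the shared words describe the 3′ end only. Rpl6 followed with 2460 and 3025 CPM (0.30). Rps6, the small subunit protein that S6 kinase phosphorylates downstream of mTOR, had 3709 and 4439 CPM (0.26). Rpl14 had 2913 and 3472 CPM (0.25), and Rps7, which like several free ribosomal proteins can bind the p53 regulator MDM2, had 3285 and 3819 CPM (0.22). All 8 of these genes were higher under the ketogenic diet in all 13 clusters.

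Rps27l, the paralog of Rps27 that is known as a p53 target, had the lowest ratio: 462 CPM in the chow library and 341 CPM in the ketogenic one, a log2 ratio of -0.44 (counting SE 0.0255). The gene is at chr9:66946086-66949516, plus strand, with 4 exons. The ketogenic library had the lower value in all 13 clusters, by -0.16 to -0.75. Its paralog Rps27 had 10026 and 9866 CPM (-0.02), but all of the 31-base words in the last 300 bases of its transcript also occur in Rps27rt, so its counting is uncertain. Next came Rpl37a with 7931 and 6498 CPM (-0.29), Rps28 with 5468 and 4536 CPM (-0.27) and Rpl38, known for its part in translating Hox mRNAs, with 4367 and 3652 CPM (-0.26). Rps12 had 1990 and 1675 CPM (-0.25), Rpl41, the smallest ribosomal protein, 8401 and 7075 CPM (-0.25), and Rps26, which lies near the mRNA exit channel, 2300 and 2033 CPM (-0.18). Rplp1, which binds Rplp0 in the stalk, had 4467 and 3957 CPM (-0.17), but its ratio turned to 0.11 without cluster weights. Without those weights, several other ratios also moved by more than 1.5 times: Rps27l to -0.87, Rpl37a to -0.13, Rps28 to -0.17, Rpl38 to -0.06 and Rps12 to -0.13, and among the higher members Rps6 to 0.42, Rpl14 to 0.45 and Rps7 to 0.43. Of the 8 lowest members, 5 share at least 50% of those words with another gene, and their counting is uncertain: Rps28, Rps12, Rpl41, Rps26 and Rplp1.

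The same members stood at the ends in separate clusters. In the ILC2-like cluster 0, Rpl4 had 1820 CPM in the chow library and 2547 CPM in the ketogenic one (0.48) and Rpl3 had 2454 and 3267 CPM (0.41), while Rps27l had 278 and 184 CPM (-0.59) and Rps12 2140 and 1574 CPM (-0.44). In the NK-like cluster 1, Rpl3 had 2233 and 3424 CPM (0.62) and Rpl4 1475 and 2245 CPM (0.61), while Rps27l had 307 and 228 CPM (-0.43) and Rpl37a 7682 and 6415 CPM (-0.26). In the macrophage-like cluster 3, Rplp0 had 2911 and 3835 CPM (0.40) and Rpl3 1600 and 2105 CPM (0.40), while Rps27l had 701 and 540 CPM (-0.38) and Rps28 4693 and 3823 CPM (-0.30). In the γδ T-like cluster 11, Rpl3 had 1880 and 2710 CPM (0.53) and Rpl4 1743 and 2326 CPM (0.41), while Rps12 had 2281 and 1552 CPM (-0.56) and Rpl37a 7847 and 6389 CPM (-0.30). The clusters share the same pair of libraries, so they are not replicates of the diet.

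Of the 78 members, 19 were higher under the ketogenic diet in all 13 clusters (24.4%), against 18.5% of all genes with at least 20000 UMIs. Rps27l was the only member lower in all 13, against 6.69% of those genes. Cluster 9 bears on the second count. There 77 of 78 members were higher under the ketogenic diet, with a median of 0.55, and the median over all genes was 0.50, beside the lower share of immunoglobulin. In the 12 other clusters, 19 members were higher throughout (24.4%), against 18.5% of all genes with at least 20000 UMIs. There 10 members were lower throughout (12.8%), against 16.2% of those genes: Rps27a, Rpl27, Rplp2, Rpl22, Rps26, Rpl41, Rpl38, Rps28, Rpl37a and Rps27l. Outside cluster 9, the median ratio of the members lay between -0.03 in cluster 2 and 0.13 in cluster 8.

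**Figure D2:**
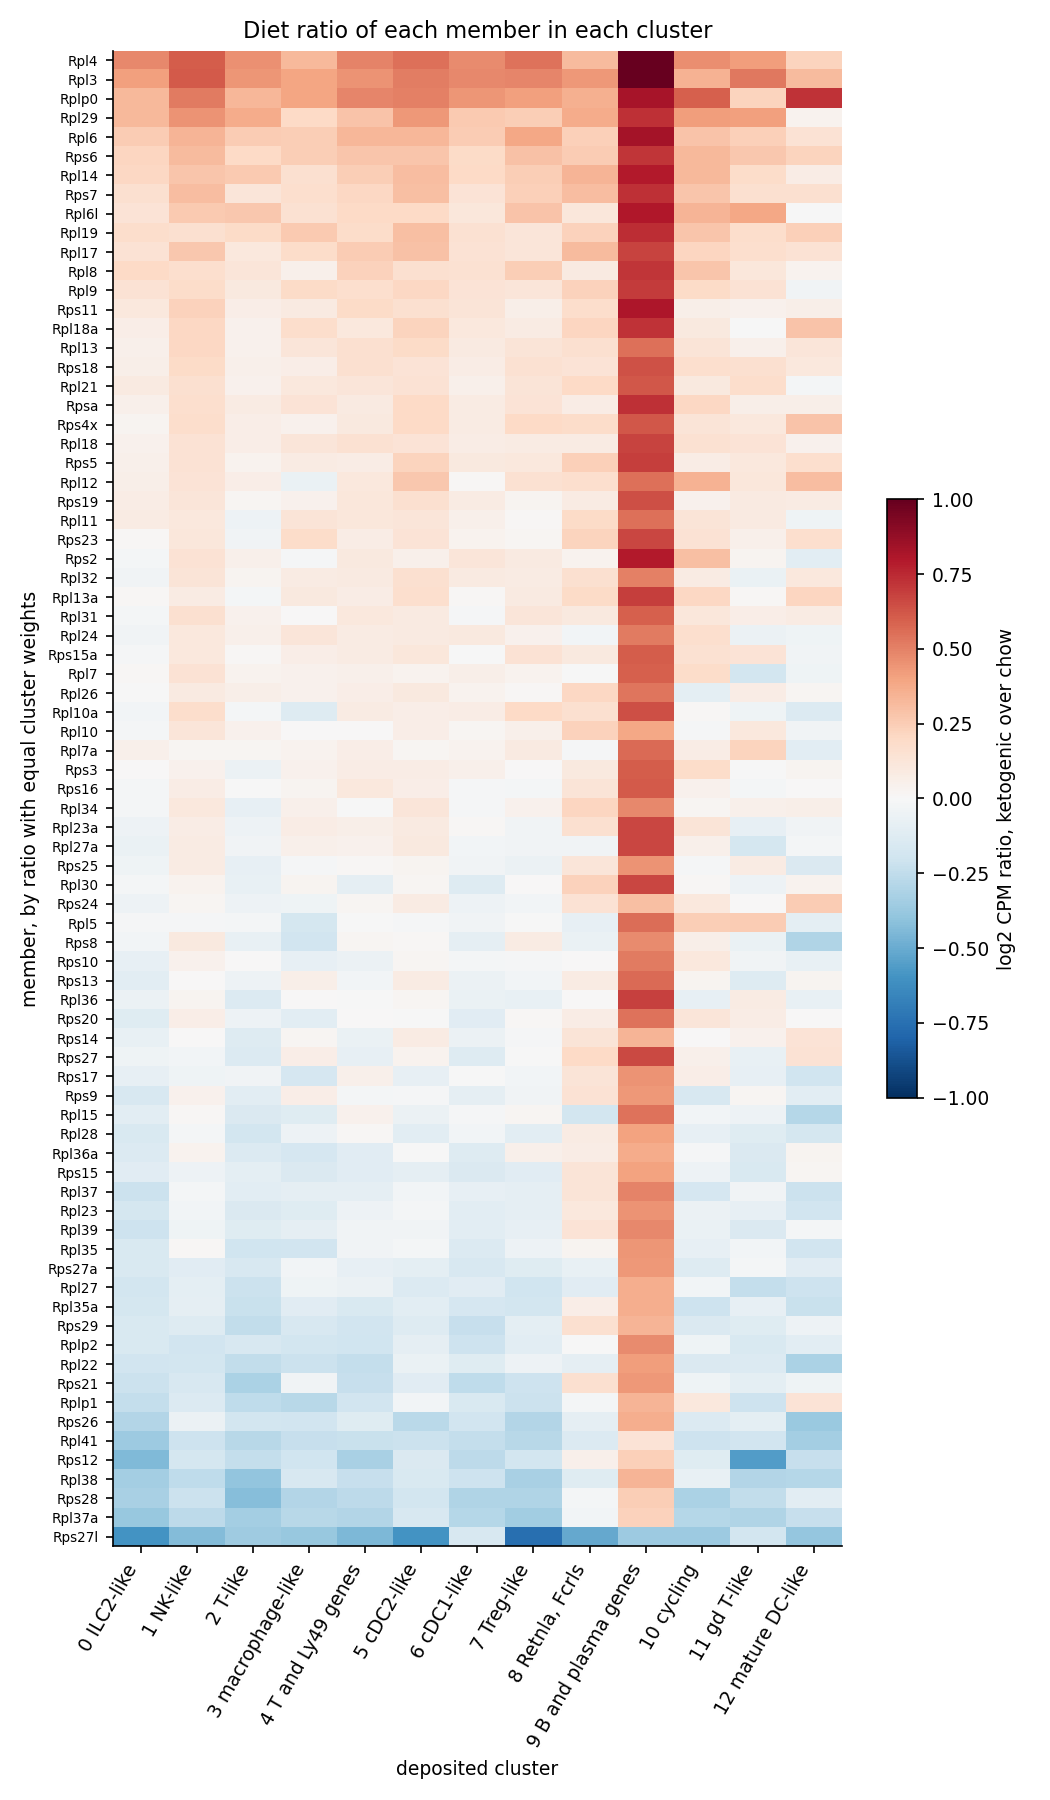
Log2 CPM ratio of the ketogenic over the chow library for the 78 members with at least 100 UMIs (rows, ordered by their ratio with cluster weights) in each of the 13 clusters (columns). Red is higher and blue lower under the ketogenic diet, and colours end at 1 and -1, which Rpl4 and Rpl3 pass in cluster 9. The upper 8 rows are red in every cluster, Rps27l in the lowest row is blue in every cluster, and cluster 9 is red in all rows but Rps27l.

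The ratios tended to rise with the length of the encoded protein, a relation that was looked for after the ratios had been seen. Over the 77 members with an annotated coding sequence and at least 100 UMIs (80 of the 81 have one), coding length and the log2 ratio had a Pearson r of 0.73 and a Spearman rho of 0.75. These genes come from the same 2 libraries and are not independent, so the value is a description. Since the end of the mRNA that was read is not known, what length stands for in this relation is not known either. Of the 26 members with under 400 coding bases, 5 were higher under the ketogenic diet, with a median of -0.11. Of the 30 with 400 to 600 bases, 20 were higher (median 0.07), and of the 18 with 600 to 900 bases, 15 were higher (median 0.07). All 3 with at least 900 bases were higher, with a median of 0.48. Rpl5 is an exception among the long members, with 891 coding bases and a ratio of -0.01.

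The relation held in both subunits, at r = 0.76 over 46 large and 0.68 over 31 small subunit members. It was 0.78 over the 49 members that share no 31-base word with another gene. Within single clusters r ran from 0.39 in cluster 8 to 0.76 in cluster 6. The length of the whole transcript gave an r of 0.42 and its GC content 0.09. Over 4341 other genes with at least 1000 UMIs, coding length gave an r of -0.09. In the same length classes, however, the medians of those other genes were -0.08, 0.06, 0.16 and 0.09, so short coding sequences went with low ratios there too. The members lay furthest from the other genes in the class of at least 900 bases. Lengths are not matched there: the members have 951 to 1257 bases, and the other genes have no upper limit.

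**Figure D3:**
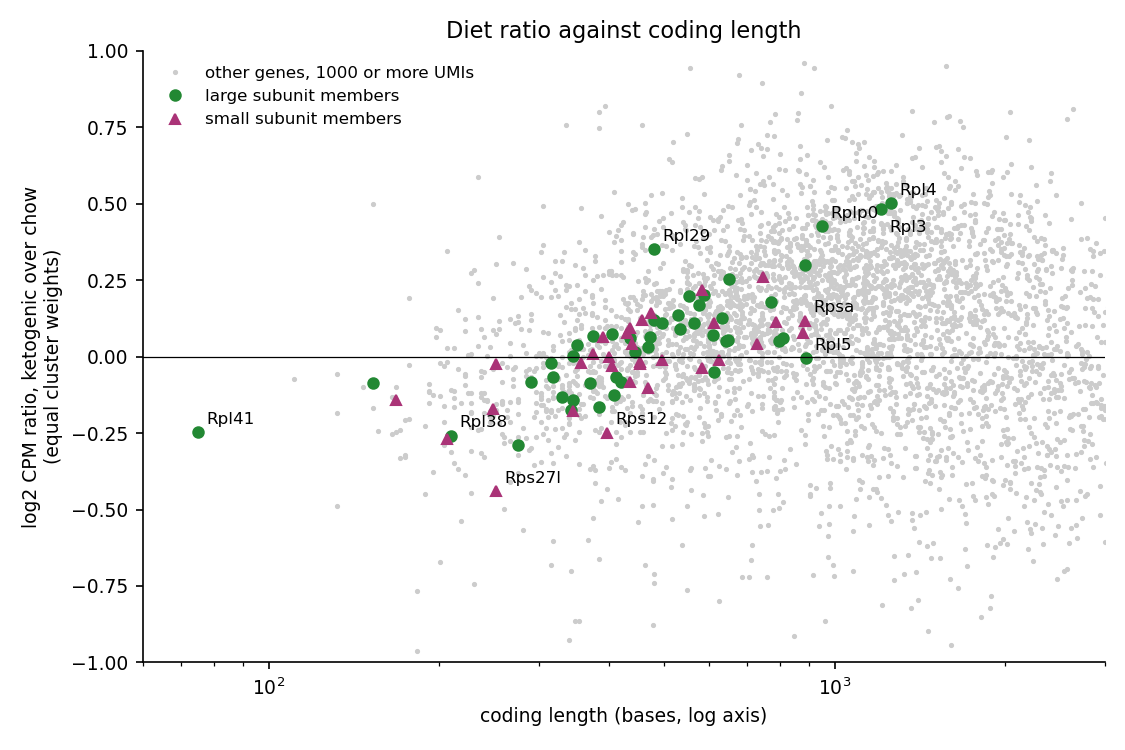
Log2 CPM ratio (ketogenic over chow, cluster weights) against coding length in bases on a log axis, for 46 large subunit members (green circles), 31 small subunit members (purple triangles) and other genes with at least 1000 UMIs (grey). Axes end at 3000 bases and at 1 and -1, so some grey genes lie outside. Members run from Rpl41 with 75 bases, below 0, to Rpl4 with 1257 bases at 0.50.

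Members differed little in their pattern over the cell types. Within each library, a member's share of all member UMIs was taken per cluster on the log2 scale, relative to that library's mean over the clusters. The range over the 13 clusters had a median of 0.41. On the log2 CPM scale, the median range was 0.84 for the members and 1.86 for 228 other nuclear-encoded genes with at least 20000 UMIs. The 3 members with the narrowest range were Rpl23 (0.17), Rpl13 (0.18) and Rpl6 (0.20), all of the large subunit. Rpl23 made up 1.28% of the member UMIs in cluster 8 and 1.22% in cluster 12 under chow, and 1.27% and 1.06% under the ketogenic diet.

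Rps27l had by far the widest range, 3.04 on the log2 scale. It was highest in the mature dendritic cell-like cluster 12, with 1587 CPM in the chow library and 1214 CPM in the ketogenic one, and lowest in the T-like cluster 2, with 248 and 194 CPM. Rps19, the gene most often mutated in Diamond-Blackfan anaemia, ranged over 1.23, from 3925 and 4270 CPM in the NK-like cluster 1 to 8866 and 9394 CPM in cluster 12. Rpl12, at the stalk base, ranged over 1.12, in the opposite direction. It had 2096 and 2199 CPM in cluster 2 and 678 and 838 CPM in cluster 12. Rpsa, also described as the laminin receptor, ranged over 1.08, from 1575 and 1734 CPM in the macrophage-like cluster 3 to 4136 and 4307 CPM in cluster 12. Rpl10, which is needed for the last steps of large subunit maturation, made up 1.88% of the member UMIs in cluster 3 in either library and 0.909% and 0.966% in cluster 2, but its transcript end is shared with a copy. Rplp1 ranged over 0.97, from 6321 and 5361 CPM in the ILC2-like cluster 0 to 2367 and 2596 CPM in cluster 12.

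The lymphoid and the myeloid clusters did not overlap in a minority of the 78 members. In 8 (10.3%), all 6 lymphoid clusters (0, 1, 2, 4, 7 and 11) had higher relative shares than all 5 myeloid and dendritic clusters (3, 5, 6, 8 and 12) in both libraries, and in 10 (12.8%) the opposite held. The 8 higher in lymphoid clusters were Rpl12, Rpl13a, Rplp1, Rps15a, Rps21, Rps24, Rpl23a and Rps7. The 10 higher in myeloid clusters were Rps27l, Rpl10, Rpl28, Rps25, Rps9, Rps26, Rpl26, Rpl35a, Rps29 and Rpl37. By the same measure, 5.10% of the 314 genes with at least 20000 UMIs were higher in all lymphoid clusters and 10.2% in all myeloid clusters, and the members are 78 of those 314, so the second share is near the background. The largest median difference was that of Rps27l, at -1.72 (lymphoid minus myeloid), followed by Rpl10 with -0.70. In the other direction the largest were Rpl13a with 0.66 and Rpl12 with 0.51. The other 60 members overlapped between the lineages.

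**Figure D4:**
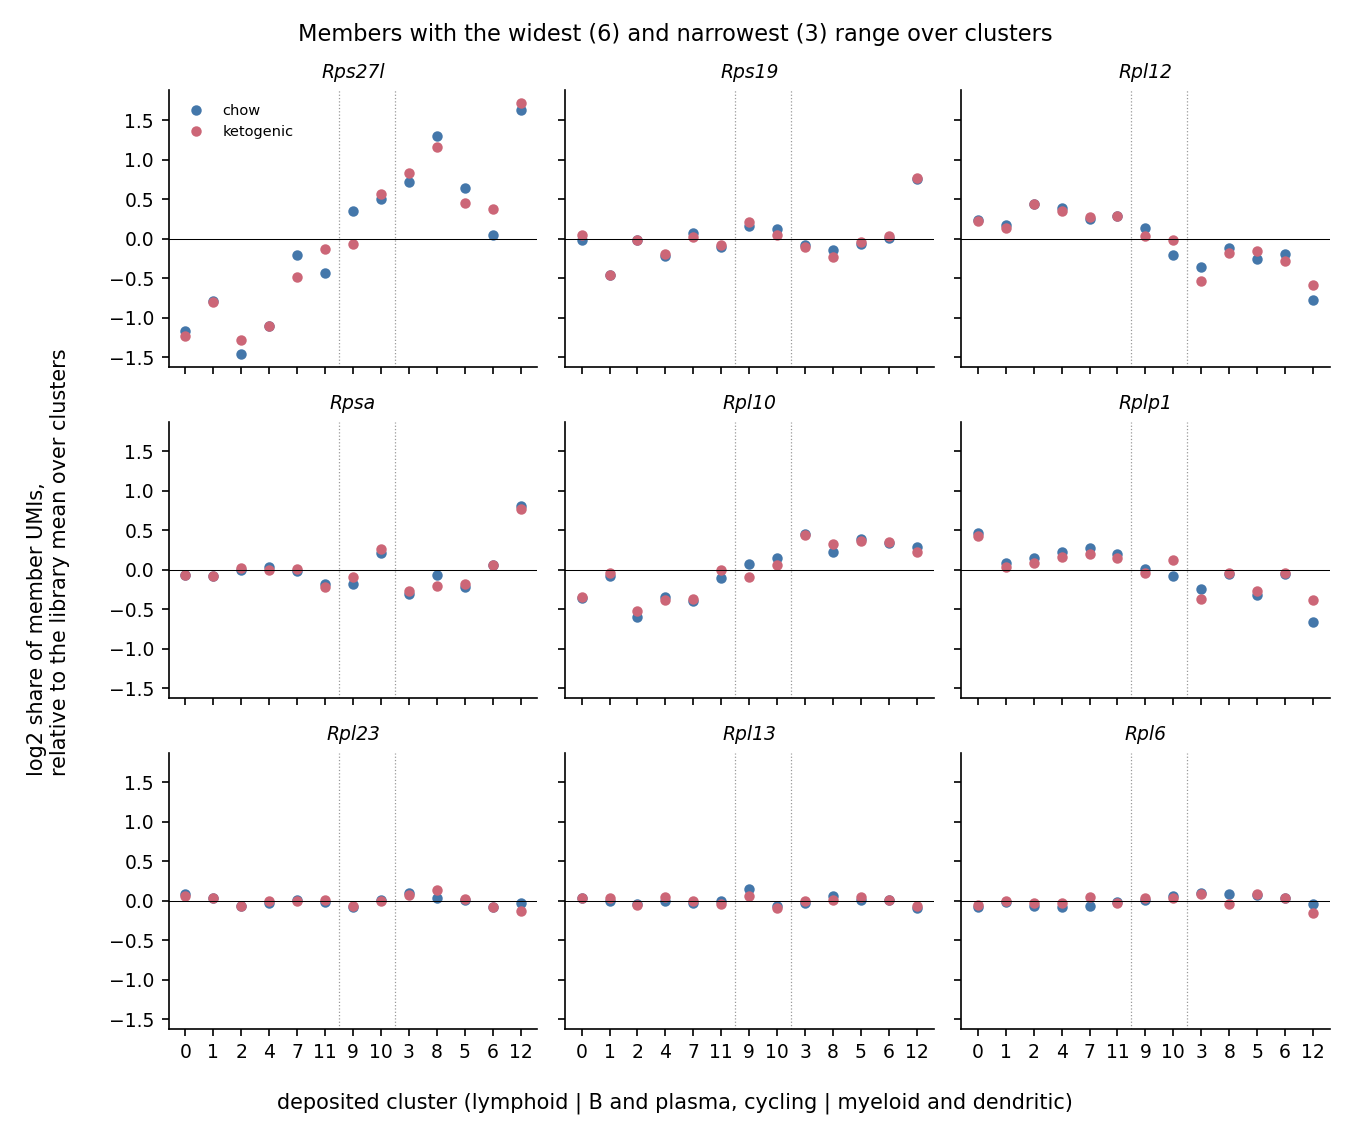
Log2 share of member UMIs, relative to the library mean over clusters, for the 6 members with the widest and the 3 with the narrowest range, in the chow (blue) and the ketogenic library (red). Clusters are ordered as lymphoid, then 9 and 10, then myeloid and dendritic, with dotted lines between these groups. Rps27l runs from -1.46 to 1.72, while Rpl23, Rpl13 and Rpl6 stay near 0, and the points of both libraries lie close together.

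The paralogs and the ribosomal proteins outside the rule differed among themselves. Fau, which encodes a ubiquitin-like protein fused to the small subunit protein eS30, had 4669 CPM in the chow library and 4576 CPM in the ketogenic one (-0.03). Gnb2l1 (Rack1), a signalling scaffold on the small subunit, had 1041 and 1057 CPM (0.02), and Rps3a1 3580 and 3671 CPM (0.04). Rpl22 had 1223 and 1092 CPM (-0.16), and its paralog Rpl22l1 1139 and 1144 CPM (0.01). Rpl7l1 had 28.5 and 37.8 CPM (0.41) and was higher in 12 of 13 clusters. Rpl36al had 874 and 806 CPM (-0.12) and was lower in 12, and Rps27rt had 1873 and 1652 CPM (-0.18) and was lower in 10. Rpl3l, a paralog known from striated muscle, had 25 and 13 UMIs, Rpl39l, known from testis, 22 and 45, and Rpl10l, also known from testis, 0 and 1, and all 3 counts are too low for a ratio. Rps4x had 3811 and 4125 CPM (0.11) and the paralog Rps4l was not analysed here.

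Annotated copies of the members had lower ratios than the members. The table holds 16 genes named as copies (symbols with -ps), and 15 of them had at least 100 UMIs. All 15 had lower levels under the ketogenic diet, as had 43.4% of all 10361 genes with at least 100 UMIs, and a lower ratio than the member they are named after, with a median log2 ratio of -0.39 and a range from -0.72 to -0.02. Rpl10-ps3 had 879 CPM in the chow library and 682 CPM in the ketogenic one (-0.37), while Rpl10 had 3467 and 3591 CPM (0.05). Rpl13a-ps1 had 137 and 83.2 CPM (-0.72), while Rpl13a had 5675 and 5960 CPM (0.07). Rps12-ps3 had 840 and 622 CPM (-0.43), and Rps12 was lower as well (-0.25). Reads of a copy and its parent are hard to tell apart, and how they were assigned is not given in the sources used here. With the UMIs of the copies added to the members, 43 members were higher and 35 lower.

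**Figure D5:**
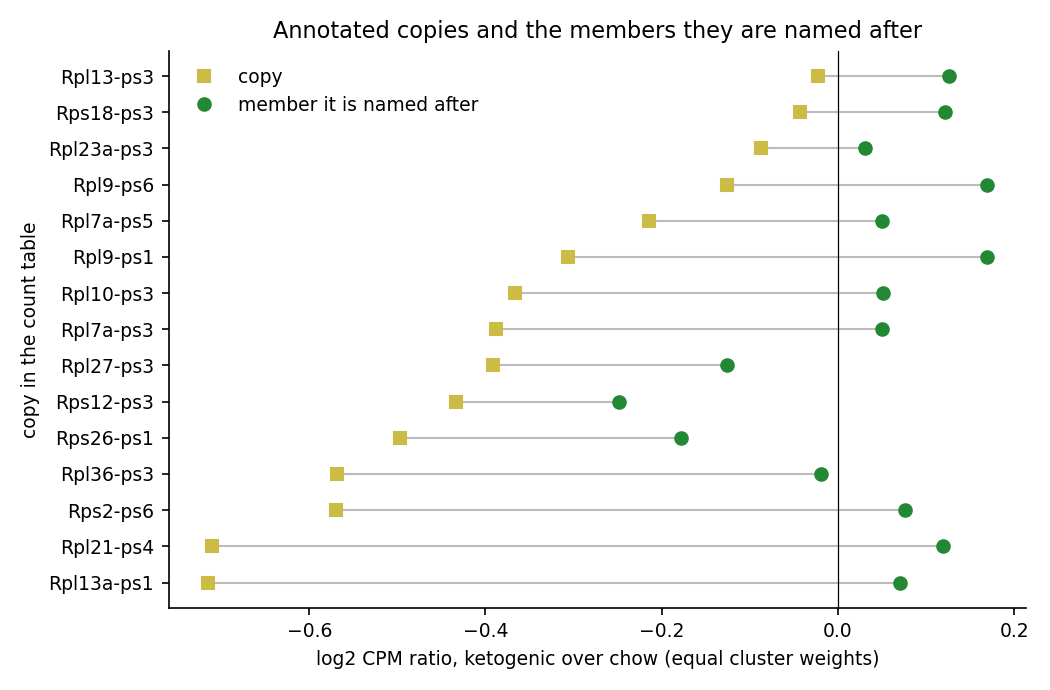
Log2 CPM ratio (ketogenic over chow, cluster weights) of the 15 copies with at least 100 UMIs (yellow squares) and of the members they are named after (green circles), joined by lines. Every copy lies below 0 and to the left of its member, from Rpl13a-ps1 at -0.72 to Rpl13-ps3 at -0.02.

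The other genes of the translation machinery were counted from lists. Of 19 genes for elongation factors and other TOP mRNAs, 2 were at least 1.5-fold higher and 0 lower, with a median log2 ratio of 0.14. The 2 were Eef2, the factor that moves the ribosome along the mRNA, with 837 and 1435 CPM (0.78), and Eif3l, an initiation factor subunit, with 65.4 and 103 CPM (0.65), both higher in all 13 clusters. Eef1a1, which brings aminoacyl-tRNA to the ribosome, had 3996 and 5045 CPM (0.34), whereas Tpt1 had 3888 and 3293 CPM (-0.24). Of 36 initiation factor genes, 2 were 1.5-fold higher (Eif3l and Eif2b1) and 0 lower, with a median of 0.17. Of 49 ribosome biogenesis genes, 0 were 1.5-fold higher and 2 lower (Utp20 and Heatr1), with a median of 0.15. Of 22 genes of mTOR and translation control, 0 were higher and 3 lower (Mlst8, Deptor and Larp1), with a median of 0.13. Several of these ratios rest on few UMIs (chow and ketogenic): Eif2b1 268 and 470, Utp20 240 and 164, Heatr1 168 and 119, Mlst8 117 and 79, and Deptor 212 and 154. Deptor was lower in only 8 of 13 clusters. Larp1, which binds the TOP motif, had 47.0 CPM in the chow library and 29.8 CPM in the ketogenic one (-0.66) and was lower in all 13 clusters. The 76 mitochondrial ribosomal protein genes, whose products serve a separate ribosome, had 0 past 1.5-fold in either direction and a median of 0.08. These counts stand beside the backgrounds of 5.0% and 4.84% of all genes.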

How the data were processed

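Expression was measured in 2 single-cell libraries, 1 per diet. The matrices were deposited as raw counts of UMIs for every gene in every cell, in whole numbers and without normalisation by the authors. Cell Ranger, Seurat and mm10 are named in the submitters' processing notes, without version or role. Cluster numbers (resolution 0.5) are from the authors' deposited cluster table, which covers 98.1% of the chow and 99.0% of the ketogenic cells. How cells, doublets and reads shared by copies were handled is not given in the sources used here, and no doublet caller was run.

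Counts were summed per cluster and library. CPM is (sum + 0.5) per 1000000 UMIs of that cluster, and for values over all clusters each cluster had the same weight in both libraries. Intervals are exact binomial at 95%. Clusters were named from marker lists: a marker counted as raised at 2-fold over the other cells with 20 CPM added, and at least 3 markers were required, 1 of them among the 10 leading genes. The names of clusters 2, 4 and 9, whose markers fit more than 1 class, were set by hand. Positions, exons and coding lengths are from GENCODE M21 (GRCm38), which holds 28339 of the gene IDs (98.8%) and all 81 members. Promoters are from RefSeq. No p-value was computed, because each diet is 1 library.

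Members named in the text are the 8 highest and 8 lowest ratios, the 2 highest and 2 lowest in clusters 0, 1, 3 and 11, the 6 widest and 3 narrowest ranges over clusters, those under 100 UMIs, and paralogs. Those in the lineage comparison, the 10 lower in 12 clusters and the genes named from other lists were chosen after their values were seen. The members and lists were chosen with earlier results of these data known. Results on some other genes, and repeats of the member share with them added, are not reported here. The ratio script was tested on simulated counts in which chosen genes were changed by more than any member was with cluster weights. That test did not cover differences as small as those of the members. Python 3.11.15, numpy 2.4.6, scipy 1.17.1, pandas 2.3.3 and matplotlib 3.10.9 were used.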

Additional observations from a re-analysis of the deposited data

Results flagged for a closer look

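The member share of UMIs differed between the diets in opposite directions in different clusters beyond counting error. The difference between clusters was not tested. The log2 ratio (ketogenic over chow) was 0.54 in cluster 9, where B cell and plasma cell genes lead, and 0.11 in cluster 8. It was -0.0461 in the T-like cluster 2 and -0.0421 in the ILC2-like cluster 0.

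Copies named after members are rows of the table that the member values do not use. Their median log2 ratio was -0.39 over the 15 copies with at least 100 UMIs, against a median of 0.06 over all 10361 genes with that many UMIs. Cells outside the deposited cluster table, 87 under chow and 55 under the ketogenic diet, also carried member UMIs. Members took 22.2% of their UMIs on chow and 26.3% on the ketogenic diet.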

How the results depend on the processing

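The difference in member share between the diets with cluster weights (log2 0.0194) had the same direction in 11 of 12 distinct alternatives and turned to -0.0109 when the 50 most counted other genes were left out of the total, where 5 clusters rather than 9 were higher. Only the value with Fau, Rack1 and Rps3a1 added stayed within counting error of 0.0194. All alternatives with cluster weights were smaller in size, so the direction of so small a value says little. The number of higher clusters was 6 after subtracting 10% free RNA, 7 each without mitochondrial genes, as a mean over cells and over members without a named copy, 8 each in cells of at least 3000 UMIs and without the deepest cells, and 9 without immunoglobulin genes. Free RNA was not measured, and the profile subtracted in its place was that of all cells of the same library. The log2 ratio of the share was 0.0161 without mitochondrial genes in the total, 0.0130 without immunoglobulin genes, 0.00408 as a mean over cells (scaling every cell to 1000 UMIs is the same computation for a share), 0.00625 in cells of at least 3000 UMIs, 0.00842 without the deepest 5% of cells, 0.00192 after subtracting 10% free RNA, 0.00862 over members without a named copy, 0.0188 with Fau, Rack1 and Rps3a1 added and 0.00755 without cluster 9. Without cluster weights, where the difference in cell composition stays in, it was 0.172, and 0.173 over all cells. The ratio of the highest to the lowest cluster (1.68) was 1.69 without mitochondrial genes, 1.48 without the 50 genes, 1.54 as a mean over cells, 1.99 in cells of at least 3000 UMIs, 1.79 after subtracting free RNA, and 1.58 each without the deepest cells, without immunoglobulin genes and without cluster 9. At limits of 25% higher and 20% lower, 4 and 1 members passed, and without cluster weights 2 (Rpl4 and Rpl3) were 1.5-fold higher and 1 (Rps27l) lower, against 0 and 0. Of 160 alternative values of the 16 members at the ends, 159 kept their direction, and Rplp1 turned to 0.11 without cluster weights. This count overstates how far the values were varied. With copies added, only Rps12 and Rps26 among these members could change, and the pseudocount hardly moved any value. The 16 were also picked for having the most extreme ratios. The causes were not tested. The settings without cluster 9, without immunoglobulin genes, with Fau, Rack1 and Rps3a1 and with copies added were chosen after seeing the data, as was the relation with coding length (r = 0.73, and 0.78 over members that share no 31-base word). No paired analysis was possible because each diet has 1 library. Counting error is small in the sums over clusters, but the values above moved when shallow or deep cells were left out.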
